A study of Mus musculus with 8 samples.

Results

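Lrp2, Cubn, Amn, Dab2, Fcgrt, Ctsl, Lgmn and Lrpap1 encode the apical uptake receptors of absorptive epithelia such as the visceral endoderm, together with their adaptor, their chaperone and proteases of the lysosome. These 8 genes were taken by that role, with their read counts in the 4 conditions already known, out of 46078 Ensembl gene IDs in the count tables. All 8 were found and all 8 passed the filter on low counts (a mean of more than 10 reads over the libraries). Because those counts chose the genes, their levels and fold changes are given as a description, without a test.

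Absorptive epithelia take up proteins at their apical surface and break them down in lysosomes. Megalin (Lrp2) and cubilin (Cubn) are the giant receptors of this route; cubilin spans no membrane by itself and reaches the surface bound to amnionless (Amn), while Dab2 couples megalin to clathrin. The visceral endoderm uses this machinery to feed the embryo before the placenta works, and the kidney proximal tubule uses it to reclaim filtered proteins.

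The study induced somatic and germ cell-like cells of the testis from mouse ESCs, and 8 RNA-sequencing libraries in 4 groups of 2 were used. tcESCs are an XY C57BL/6 ESC line that carries the tesco-cfp reporter, in which a Sox9 enhancer drives CFP. tc;Sf1ESCs are a G418-selected clone of that line with a constitutively expressed Sf1 (Nr5a1) transgene. SCLCs are CFP-positive cells sorted at day 12 from tc;Sf1TesLC cultures, which were grown from tc;Sf1ESCs with CHIR99021 and TTNPB and then with CHIR99021, BMP7 and FGF9, so that the reporter and the transgene were shared with their parent cells. tod-PGCLCs are sorted germ cell-like cells of genotype XY;Prdm1-gfp and strain C57BL/6, taken at day 6 from organoids in which epiblast-like cells, made with bFGF and activin A, had been aggregated with tc;Sf1TesLCs in medium with CHIR99021. Both ESC groups were kept in 2iLIF. The ESC line behind the tod-PGCLCs was not analysed here, so the line and the cell state cannot be told apart in any comparison that includes them. A clone stands for the transgene in tc;Sf1ESCs and SCLCs, and the CFP gate selects on the reporter alone.

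The libraries held 25411033 to 30680191 reads on genes, at which 3 reads equal 0.0978 to 0.118 CPM (the read count scaled to the library's total on genes, the unit of all levels unless stated). Nr5a1 had 1 and 0 reads in tcESCs, 52 and 30 in tc;Sf1ESCs, 341 and 535 in SCLCs, and 6 and 5 in tod-PGCLCs. The labelled cell types were compared with their markers. Of 11 Sertoli cell markers, 4 reached 1 CPM in both SCLC libraries. The summed level of the 11 was 443 to 451 CPM in SCLCs, mostly Gata4 (423 CPM), against 11.6 to 13.4 in tcESCs and 11.9 to 12.7 in tc;Sf1ESCs. In SCLCs Sox9 averaged 6.12 CPM (0.135 in tc;Sf1ESCs), Wt1 1.53 CPM (0.408) and Amh 0.567 CPM (0.761), and Fshr had no reads. Of 9 tested, 5 were called higher and 1 lower in SCLCs than in tc;Sf1ESCs (fold change above 2, adjusted p under 0.05), against 24.2% and 18.0% of all genes. All 8 germ cell markers reached 1 CPM in both tod-PGCLC libraries but also in every other library, and their summed level was 1047 to 1052 CPM in tod-PGCLCs and 412 to 560 CPM elsewhere. The 2 SCLC libraries were the most unlike pair, with an SD of the log2 difference between replicates of 0.518 against 0.310 to 0.378 in the other groups. Nothing in the labels says whether replicates came from separate cultures, so errors and p-values cover the spread between these libraries, and intervals cover counting error only.

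Promoter windows of RefSeq transcripts on GRCm38.p6 were held for all 8 genes, 10 windows in all because Dab2 and Lgmn have 2 starts each. Each window runs from 250 bases before to 50 bases after a start. The upstream parts of 4 of them are shown, those of megalin, cubilin and amnionless and of the chaperone Lrpap1, because the receptors were scarce in ESCs while the chaperone was abundant there. They end where the gene begins in RefSeq or in GENCODE M21, whichever comes first, so that 3 of the 5 GC boxes of the Lrpap1 window are shown. Capitals mark the letters GGGCGG (a GC box, read on either strand) and CACGTG (an E-box).
Lrp2: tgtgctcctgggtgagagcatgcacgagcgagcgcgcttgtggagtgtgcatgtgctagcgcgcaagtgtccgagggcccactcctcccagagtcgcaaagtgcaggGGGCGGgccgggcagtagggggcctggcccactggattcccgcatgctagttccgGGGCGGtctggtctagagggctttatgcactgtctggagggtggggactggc
Cubn: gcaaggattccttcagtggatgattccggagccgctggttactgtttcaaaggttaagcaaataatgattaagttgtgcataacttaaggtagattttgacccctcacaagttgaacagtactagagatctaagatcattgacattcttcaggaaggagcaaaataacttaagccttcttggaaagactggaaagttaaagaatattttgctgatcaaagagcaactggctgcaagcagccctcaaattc
Amn: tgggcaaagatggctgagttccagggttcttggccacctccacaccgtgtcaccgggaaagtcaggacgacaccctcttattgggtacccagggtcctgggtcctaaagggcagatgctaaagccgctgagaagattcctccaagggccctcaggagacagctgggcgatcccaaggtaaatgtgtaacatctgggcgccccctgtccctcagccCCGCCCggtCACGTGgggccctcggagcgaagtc
Lrpap1: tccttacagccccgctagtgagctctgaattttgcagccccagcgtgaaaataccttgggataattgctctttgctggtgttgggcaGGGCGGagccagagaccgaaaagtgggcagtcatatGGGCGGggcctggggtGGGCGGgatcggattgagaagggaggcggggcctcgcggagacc
The stretch for Lrp2 is chr2:69586066-69586279 on the minus strand, that for Cubn chr2:13491877-13492126 on the minus strand, that for Amn chr12:111270846-111271094 on the plus strand, and that for Lrpap1 chr5:35105767-35105949 on the minus strand.

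The Cubn window was the least GC-rich of these, with 44.3% G and C, against 61.3% for Lrpap1, 62.3% for Amn and 65.0% for Lrp2 and a median of 52.7% over all 32841 windows. Of all 10 windows, 1 of the 2 of Dab2 was lowest, with 37.7%. GGGCGG occurred 5 times in the Lrpap1 window, 2 times in that of Lrp2 and 1 time in that of Amn. It did not occur in that of Cubn. Of the windows not shown, only 1 of the 2 of Lgmn held it, 3 times. Those of Dab2, Fcgrt and Ctsl did not, although Ctsl averaged 234 CPM in tcESCs. Thus 4 of 10 windows hold it, against 35.7% of all windows. Whether GC boxes go with the level in ESCs was not tested. CACGTG lies 26 bases before the start of Amn, and also occurs in the Ctsl window and in 1 of the 2 Lgmn windows, so that 3 of 10 windows hold it, against 7.15% of all windows. Of 8 motifs searched on both strands, the GATA letters (AGATAA and TGATAA, likewise AGATAG and TGATAG) stood in 2 of 10 windows (29.8% of all), the FOXA letters (TGTTTAC and the like TGTTTGC) in 1 (8.48% of all) and TATAAA in 1 (13.6% of all). The NR5A letters CAAGGTCA (1.56% of all windows), the HNF4 letters CAAAGTCCA (0.475%) and the HNF1 motif (0.399%) were in none of the 10. No 2 matches overlapped. A match of letters is a description of the sequence, not of binding.

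The widest contrast between groups among the receptors was that of Cubn, the receptor for intrinsic factor with cobalamin and for albumin and apolipoprotein A-I (minus strand of chr2:13276338-13491813, GRCm38). Cubn had 12 and 16 reads in tcESCs, 13 and 11 in tc;Sf1ESCs, 27982 and 61312 in SCLCs, and 170 and 194 in tod-PGCLCs. Both SCLC libraries stood far above all others, both tod-PGCLC libraries above all ESC libraries, and the ESC groups overlapped. The means were 0.497 ± 0.0348 CPM in tcESCs, 0.449 ± 0.0735 in tc;Sf1ESCs, 1582 ± 744 in SCLCs and 6.74 ± 0.80 in tod-PGCLCs (SD, n = 2 each). The log2 fold change fitted by edgeR was 11.82 (SE 0.465) for SCLCs against tc;Sf1ESCs, 3.67 (SE 0.557) for tod-PGCLCs against tcESCs, and 8.01 (SE 0.357) for SCLCs against tod-PGCLCs. Cubn shares 368 exon bases with Gm13270 on the opposite strand, which had 3 to 22 reads in any library.

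Lrp2, the gene of megalin, a receptor for vitamin carriers, hormones and lipoproteins, lies on the same chromosome (minus strand, chr2:69424340-69586065). It had 361 and 363 reads in tcESCs, 174 and 212 in tc;Sf1ESCs, 25441 and 42515 in SCLCs, and 1925 and 1728 in tod-PGCLCs. The 4 groups did not overlap one another, with SCLCs highest, tod-PGCLCs next and tc;Sf1ESCs lowest. Mean levels were 13.0 ± 1.68 CPM in tcESCs, 7.19 ± 0.671 in tc;Sf1ESCs, 1211 ± 355 in SCLCs and 67.5 ± 3.42 in tod-PGCLCs. The log2 fold changes were 7.44 (SE 0.239) for SCLCs against tc;Sf1ESCs, -0.84 (SE 0.224) for tc;Sf1ESCs against tcESCs, and 2.30 (SE 0.199) for tod-PGCLCs against tcESCs.

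Amn encodes the membrane partner that anchors cubilin (plus strand, chr12:111271095-111276426). It had 32 and 24 reads in tcESCs, 11 and 11 in tc;Sf1ESCs, 6273 and 11325 in SCLCs, and 40 and 58 in tod-PGCLCs. SCLCs were again far above the rest, and the remaining groups stood near 1 CPM, at 1.02 ± 0.337 in tcESCs, 0.411 ± 0.0190 in tc;Sf1ESCs and 1.82 ± 0.517 in tod-PGCLCs against 313 ± 108 in SCLCs. The log2 fold change of SCLCs against tc;Sf1ESCs was 9.61 (SE 0.372). Between tod-PGCLCs and tcESCs it was 0.78 (SE 0.482), next to 3.67 for its partner Cubn in the same libraries.

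Dab2, the clathrin adaptor of megalin, lies on the plus strand at chr15:6299788-6440712. It had 236 and 305 reads in tcESCs, 42 and 58 in tc;Sf1ESCs, 21015 and 36968 in SCLCs, and 273 and 317 in tod-PGCLCs. The tc;Sf1ESC libraries stood below every other library and the SCLC libraries above, while tcESCs and tod-PGCLCs, with 9.61 ± 0.462 and 10.9 ± 1.43 CPM, overlapped. Among the 8 genes Dab2 had the widest difference between the ESC groups, 5.10-fold lower in tc;Sf1ESCs (log2 fold change -2.35, SE 0.309), at 1.86 ± 0.336 CPM. In SCLCs it stood at 1032 ± 338 CPM, a log2 fold change of 9.16 (SE 0.295) against tc;Sf1ESCs.

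Lrpap1 encodes the receptor-associated protein, a chaperone that keeps megalin and its relatives from binding ligands during their synthesis (minus strand, chr5:35091501-35105766). It had 5107 and 6406 reads in tcESCs, 5077 and 5614 in tc;Sf1ESCs, 24017 and 35797 in SCLCs, and 2824 and 2999 in tod-PGCLCs. Unlike its client receptors it was abundant in ESCs, with 205 ± 5.53 CPM in tcESCs and 199 ± 4.97 in tc;Sf1ESCs. It stood at 1068 ± 229 CPM in SCLCs (log2 fold change 2.47, SE 0.135, against tc;Sf1ESCs) and at 108 ± 7.33 in tod-PGCLCs, below both ESC groups (log2 fold change -1.0, SE 0.131, against tcESCs).

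Fcgrt, the neonatal Fc receptor that returns IgG and albumin from acid endosomes to the surface, went the other way (minus strand, chr7:45092990-45103851). It had 166 and 239 reads in tcESCs, 186 and 182 in tc;Sf1ESCs, 129 and 109 in SCLCs, and 199 and 113 in tod-PGCLCs. Its SCLC libraries lay below all 4 ESC libraries, and its tod-PGCLC libraries spread across both. The means ran from 4.31 ± 0.793 CPM in SCLCs to 7.16 ± 0.889 in tcESCs, and the log2 fold change of SCLCs was -0.63 (SE 0.263) against tc;Sf1ESCs. Between SCLCs and tod-PGCLCs it was -0.29 (SE 0.265), and without replicate 1 of the tod-PGCLCs it turned to 0.14. B2m, the light chain that Fcgrt needs, had 452 and 496 reads in tc;Sf1ESCs and 8677 and 8794 in SCLCs. It rose from 17.7 ± 0.345 to 315 ± 17.8 CPM (log2 fold change 4.20, SE 0.0881, adjusted p = 6.82e-09 in the quasi-likelihood test of edgeR, where Benjamini-Hochberg values cover all genes tested). B2m was thus 18.4-fold higher in SCLCs while Fcgrt was lower there than in the cells they were grown from.

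Both lysosomal cysteine proteases were present throughout and highest in SCLCs. Ctsl, cathepsin L (minus strand, chr13:64359337-64370890), had 5766 and 7384 reads in tcESCs, 5698 and 6267 in tc;Sf1ESCs, 52462 and 81530 in SCLCs, and 6520 and 6271 in tod-PGCLCs. Lgmn, legumain, which cuts after asparagine and processes cathepsins (minus strand, chr12:102394084-102439813), had 1340 and 1835 reads in tcESCs, 1390 and 1424 in tc;Sf1ESCs, 23294 and 26641 in SCLCs, and 1532 and 1624 in tod-PGCLCs. For both genes the SCLC libraries stood apart and the other groups lay within a narrow range, 223 to 236 CPM for the group means of Ctsl and 52.5 to 58.4 CPM for those of Lgmn. Against tc;Sf1ESCs, SCLCs had a log2 fold change of 3.47 (SE 0.151) for Ctsl, to 2391 ± 582 CPM, and of 4.14 (SE 0.0884) for Lgmn, to 897 ± 26.0 CPM. Ctsl shares up to 1742 exon bases with Gm49230 on its own strand, a gene model that the count tables do not list.

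**Figure D1:**
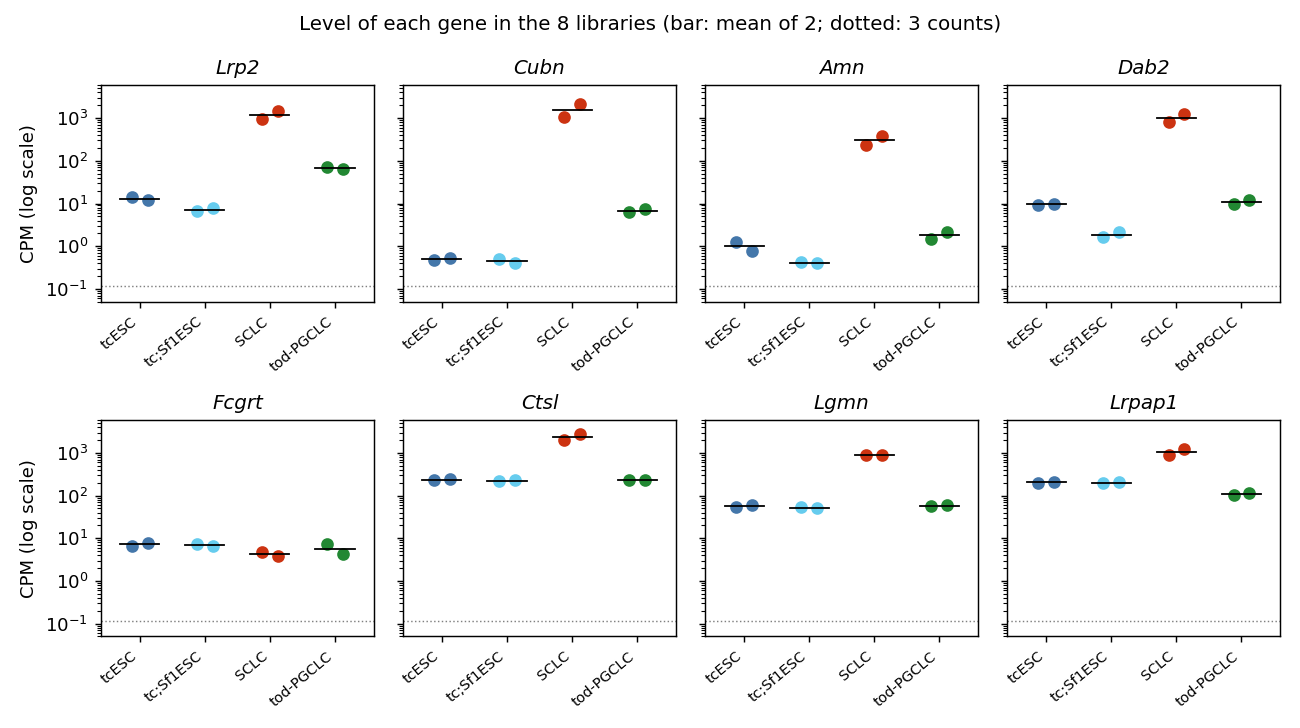
Level of each of the 8 genes (CPM, log scale) in each library, by group; points are libraries, bars are means of 2, and the dotted line marks 3 reads in the shallowest library (0.118 CPM). The red SCLC points stand above all others in 7 panels and below the ESC points for Fcgrt.

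In SCLCs against tc;Sf1ESCs, 7 of the 8 genes had SCLC libraries above both others and 1, Fcgrt, below. Of all 16707 genes tested, 42.2% had SCLC libraries above and 44.0% below, and the genes were chosen on these same counts, so nothing is read from the 7 of 8. The median log2 fold change was 5.79 over the 8 genes and 0.02 over all genes tested. Against tcESCs the counts were again 7 and 1 (42.0% and 43.3% of all genes), and against tod-PGCLCs 7 above and 1 overlapping (36.5% of all genes above). In tod-PGCLCs against tcESCs 3 genes, Lrp2, Cubn and Amn, lay above, 1, Lrpap1, below and 4 overlapped (47.2% and 36.4% of all genes). In tc;Sf1ESCs against tcESCs none lay above and 4, Lrp2, Amn, Dab2 and Ctsl, lay below (36.8% and 39.3% of all genes). These comparisons share libraries and are not independent of one another. In bulk RNA, fewer cells of a type and less RNA per cell cannot be told apart.

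Levels of different genes were compared per kilobase of the principal transcript. In tcESCs the order was Ctsl (119 ± 4.94 CPM per kb), Lrpap1 (68.7 ± 1.86), Lgmn (30.7 ± 2.73), Fcgrt (4.05 ± 0.502), Dab2 (2.06 ± 0.0992), Lrp2 (0.842 ± 0.109), Amn (0.60 ± 0.198) and Cubn (0.0441 ± 0.00309), and no neighbours overlapped. The chaperone and the proteases thus headed the order in tcESCs, and Lrp2, Amn and Cubn closed it. In SCLCs the order per kb was Ctsl (1213 ± 295), Lgmn (489 ± 14.2), Lrpap1 (358 ± 76.9), Dab2 (221 ± 72.4), Amn (184 ± 63.4), Cubn (140 ± 66), Lrp2 (78.3 ± 22.9) and Fcgrt (2.43 ± 0.448). Dab2 and Amn, Amn and Cubn, and Cubn and Lrp2 overlapped when values were compared across libraries. Within each library the order was the same, with Dab2 at 170 and 273, Amn at 139 and 229, Cubn at 93.8 and 187 and Lrp2 at 62.1 and 94.5 CPM per kb in replicates 1 and 2, since all 4 were higher in replicate 2. In tod-PGCLCs Lrp2 (4.36 ± 0.221 CPM per kb) came before Fcgrt (3.24 ± 1.19), and Cubn (0.598 ± 0.0710) stayed last. The rank of Ctsl depends on the transcript counted: with its longer principal form of 6168 bases instead of 1971 it would stand at 388 CPM per kb in SCLCs, between Lgmn and Lrpap1, and at 37.9 in tcESCs and 36.2 in tc;Sf1ESCs, below Lrpap1.

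**Figure D2:**
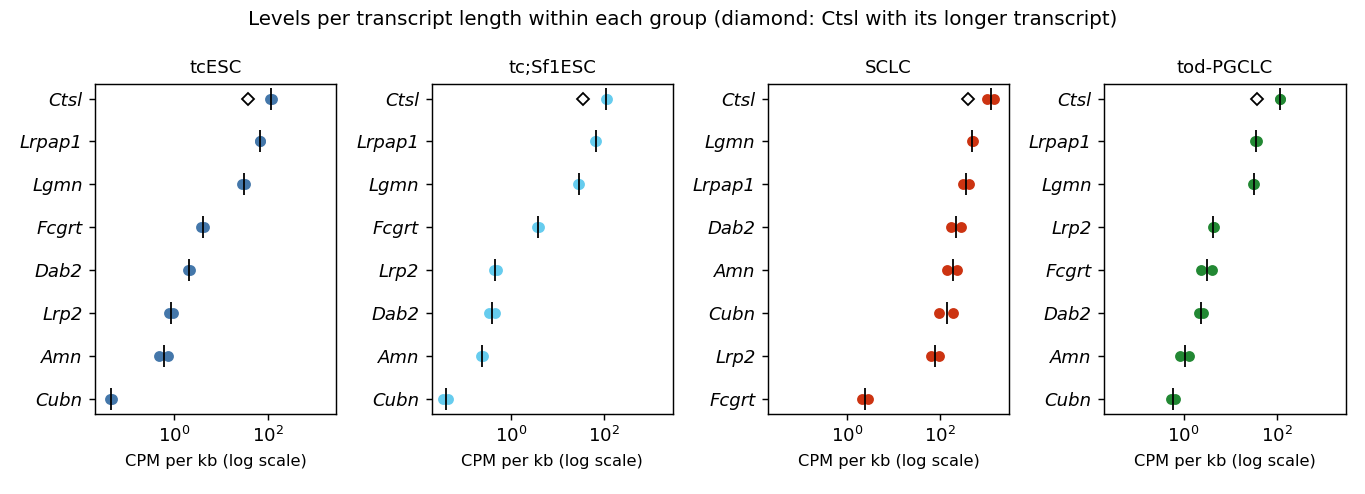
Level of each gene per kilobase of its principal transcript (CPM per kb, log scale), 1 panel per group, genes sorted by mean; points are libraries, ticks are means, and the open diamond gives the mean of Ctsl with its longer transcript. Cubn is last in 3 groups, and Fcgrt is last in SCLCs.

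Between the 2 SCLC libraries the level of Cubn, Amn, Dab2 and Lrp2 differed more than that of the other 4 genes. The level in replicate 2 was 2.0 times that in replicate 1 for Cubn, 1.64 for Amn, 1.6 for Dab2, 1.52 for Lrp2, 1.42 for Ctsl, 1.36 for Lrpap1, 1.04 for Lgmn and 0.770 for Fcgrt. Over 11149 tested genes with at least 100 reads in both libraries, the median ratio was 0.997 and the range from the 5th to the 95th percentile was 0.691 to 1.44. Cubn, Amn, Dab2 and Lrp2 thus lay above that range, and the other 4 within it. Over 18 visceral endoderm markers with enough reads the ratio had a median of 1.55 (range 0.839 to 2.82), over 10 parietal endoderm markers 0.964, over 8 pluripotency markers 0.698 and over 7 germ cell markers 0.642. Over 3 intestinal enterocyte markers it was 1.97 (range 0.646 to 2.61), over 3 Sertoli cell markers 1.04 (range 0.575 to 1.17, the median being Gata4, which is also on the visceral endoderm list), and the placental cathepsin Ctsj stood at 2.97. The part of any of these marker groups in the ratio of the 4 genes was not tested. Leaving out SCLC replicate 2, the log2 fold change of Cubn between SCLCs and tc;Sf1ESCs was 11.24, and leaving out replicate 1 it was 12.25, so that neither library decides the contrast.

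**Figure D3:**
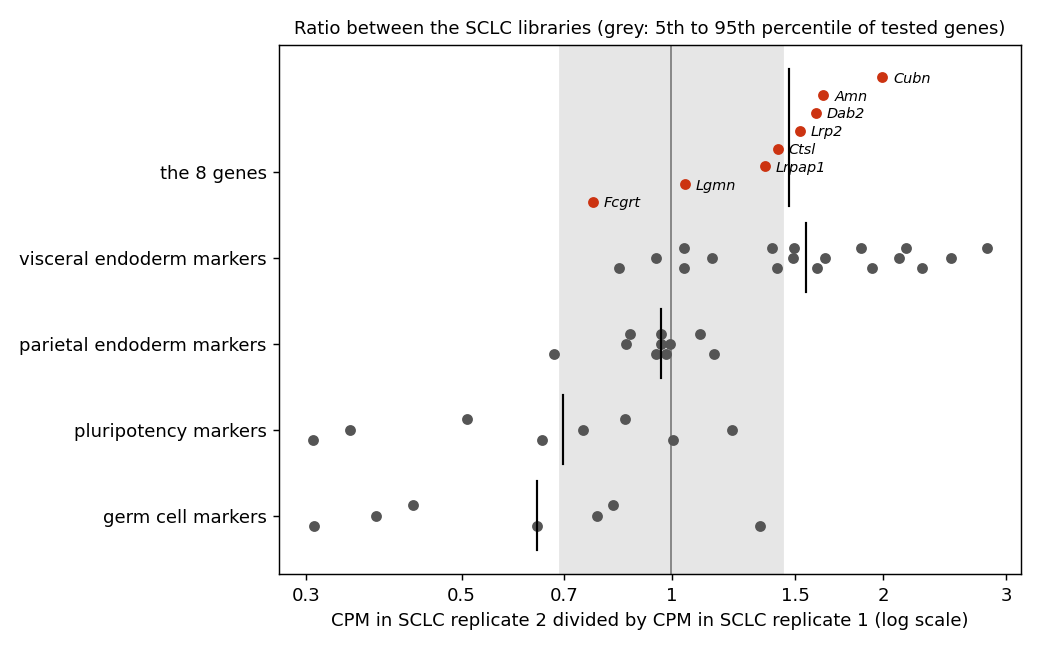
Level in SCLC replicate 2 divided by that in replicate 1 (log scale) for the 8 genes and for 4 lists of marker genes; points are genes, black lines are medians, the grey line is the median of 11149 genes and the grey band their 5th to 95th percentile. Cubn, Amn, Dab2 and Lrp2 lie to the right of the band, with the visceral endoderm markers centred at 1.55.

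Markers of the tissues known for these receptors were read in the same libraries. Of 20 visceral endoderm markers 19 reached 1 CPM in both SCLC libraries, and only Trf, with a mean of 0.0532 CPM, did not. Their summed level was 1662 to 2250 CPM in SCLCs, 43.9 to 45.3 in tcESCs, 121 to 127 in tc;Sf1ESCs and 390 to 427 in tod-PGCLCs. Rhox5 alone averaged 349 CPM in tod-PGCLCs, 94.8 in tc;Sf1ESCs, 27.9 in tcESCs and 245 in SCLCs, where Gata4 held 423 CPM. The 11 parietal endoderm markers all reached 1 CPM in SCLCs and summed to 50795 to 51395 CPM, against 1143 to 2510 CPM in the other libraries, led by Col4a1 with 18981 CPM. Of 10 kidney proximal tubule markers 4 reached 1 CPM in SCLCs, where the list summed to 24.0 to 26.5 CPM. This was below the 27.3 to 27.5 CPM of tc;Sf1ESCs and the 28.8 to 30.2 CPM of tod-PGCLCs and above the 15.6 to 16.7 CPM of tcESCs. The sum hides opposite changes, since of 4 tested, 2 were called higher and 2 lower in SCLCs than in tc;Sf1ESCs. From tc;Sf1ESCs to SCLCs, Aqp1 went from 0.0181 to 18.7 CPM and Slc5a2 from 0 to 1.68, while Slc27a2 went from 20.5 to 2.08 and Slc4a4 from 6.88 to 2.63. Slc34a1, Slc22a6, Slc22a8 and Kap had no reads in SCLCs. Of 10 intestinal enterocyte markers 3 reached 1 CPM in both SCLC libraries, with a summed level of 94.1 to 96.5 CPM in SCLCs and 39.9 to 91.8 CPM in the other libraries. Of the 9 tested, 4 were called higher and 3 lower in SCLCs than in tc;Sf1ESCs, against 24.2% and 18.0% of all genes. The macrophage markers Ptprc, Adgre1, C1qa and C1qb had no reads in SCLCs, and the 10 of that list summed to 56.1 to 58.2 CPM there and 19.7 to 34.1 CPM elsewhere, mostly Cd68 (50 CPM in SCLCs). Placental relatives of Ctsl were near 0 in all libraries but for Ctsj in SCLCs, with 147 and 480 reads, and Ctsq with 1.17 CPM. The share of each marker group in the levels of the 8 genes was not tested.

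Relative to SCLCs, tod-PGCLCs held 5.57% of the Lrp2 level, 0.426% of Cubn, 0.581% of Amn, 1.06% of Dab2, 6.51% of Lgmn, 9.89% of Ctsl and 10.1% of Lrpap1, and 133% of Fcgrt. For Lgmn and Ctsl these shares were close to those of tcESCs, 6.27% and 9.78%, and for Lrpap1 the tcESC share was 19.2%. Lrp2 and Cubn in tod-PGCLCs stood above the tcESC shares of 1.08% and 0.0314%. Over the 20 visceral endoderm markers, the tod-PGCLC level had a median of 3.24% of the SCLC level (range 0.403% for Ihh to 142% for Rhox5), against a median of 0.839% in tcESCs. The tod-PGCLC share was above the tcESC share for 17 of them and not for 3, Hnf4a, Apom and Trf, and for Ihh the shares were close, 0.403% and 0.329%. Of the 19 tested, 12 were called higher in tod-PGCLCs than in tcESCs, where 18.1% of all genes tested were. The tod-PGCLCs were sorted on GFP of the Prdm1-gfp reporter together with a surface marker. The tc;Sf1TesLCs of the organoids carry the tesco-cfp reporter instead, and the authors compensated the CFP and GFP signals for this sort. Its purity was not tested here. The part of cells with visceral endoderm markers in the Lrp2 and Cubn reads of tod-PGCLCs was not tested.

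**Figure D4:**
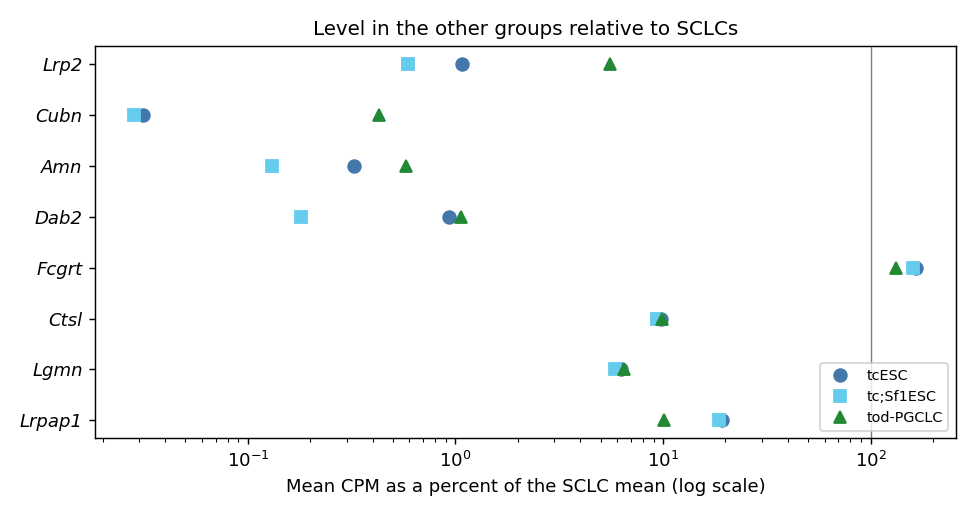
Mean CPM of each gene in tcESCs, tc;Sf1ESCs and tod-PGCLCs as a percent of its mean in SCLCs (log scale); the vertical line marks 100%. Cubn is lowest, at 0.0284% in tc;Sf1ESCs, and Fcgrt lies above 100% in each group.

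The rest of the pathway was followed in 6 lists of other endocytosis and lysosome genes, of which 152 were matched and 140 passed the filter on low counts. These lists, too, were chosen with earlier results of these data known, so their shares beside those of all genes are a description. Between SCLCs and tc;Sf1ESCs, 49 of the 140 rose and 10 fell with a fold change above 2 and an adjusted p under 0.05, while 24.2% of all genes tested rose and 18.0% fell. The median log2 fold change was 0.61 over the 140 and 0.02 over all genes. With SCLC replicate 1 left out, 51 rose and 9 fell, and with replicate 2 left out, 48 rose and 10 fell. Against tcESCs 54 of the 140 were higher and 13 lower in SCLCs, where 42.6% of all genes tested were called, 24.4% higher and 18.2% lower. Against tod-PGCLCs 50 were higher and 13 lower in SCLCs, where 38.0% of all genes were called, 19.5% higher and 18.5% lower. In tod-PGCLCs against tcESCs 19 were higher and 11 lower (18.1% and 11.2% of all genes). In tc;Sf1ESCs against tcESCs 8 were higher and 8 lower (6.13% and 5.85% of all genes), and a test against a 2-fold change kept 1 of these 16.

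Among 24 other uptake receptors tested, 7 rose and 4 fell from tc;Sf1ESCs to SCLCs, shares near the 24.2% and 18.0% of all genes. Vldlr, a lipoprotein receptor of the megalin family, rose from 2.22 ± 0.847 to 48.3 ± 14.0 CPM (log2 fold change 4.48, SE 0.275, adjusted p = 1.07e-06). Mrc2, a collagen uptake receptor, had 12 and 3 reads in tc;Sf1ESCs and 300 and 196 in SCLCs (log2 fold change 5.03, SE 0.540, adjusted p = 3.45e-05). The value for Mrc2 was 6.35 without replicate 1 of tc;Sf1ESCs and 4.31 without replicate 2. Sort1, a sorting receptor for lysosomal cargo, rose by a log2 of 1.65 (SE 0.121, adjusted p = 3.06e-06). The 4 that fell were Lrp1, a large scavenger receptor, by 1.34 on the log2 scale (SE 0.164, adjusted p = 7.80e-05), the sorting receptor Sorl1 by 2.34 (SE 0.105, adjusted p = 1.84e-07), Lrp11 by 1.87 (SE 0.151, adjusted p = 5.64e-06) and the transferrin receptor Tfrc. Tfrc fell from 601 ± 3.51 to 214 ± 77.2 CPM (adjusted p = 0.000223). Lrp8 and Lrp10, named after their values were seen, rose by a log2 of 1.16 and 1.48, and Lrp4, Lrp5, Lrp6 and Lrp12 stayed under the 2-fold limit, with log2 fold changes of 0.50, 0.95, 0.55 and 0.26.

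Of 10 genes tested among receptor partners and the cobalamin route, 3 rose and 1 fell (30% and 10%), with 24.2% and 18.0% over all genes. Besides B2m, those that rose were Tcn2, the transcobalamin that carries the vitamin onward after uptake, from 46.8 ± 1.45 to 247 ± 29.3 CPM (log2 fold change 2.44, SE 0.0916, adjusted p = 7.57e-08), and Lmbrd1, which takes part in its lysosomal export, from 15.8 ± 0.516 to 80.7 ± 1.17 CPM (log2 fold change 2.40, SE 0.0792, adjusted p = 4.14e-08). Abcd4, the partner of Lmbrd1 in that export, had a log2 fold change of -1.0 (SE 0.100, adjusted p = 2.20e-05). It sat on the 2-fold limit and lost its call in 7 of 16 alternatives, within a range of -1.16 to -0.84, among them the fits without SCLC replicate 2 (-0.84) and without replicate 1 of tc;Sf1ESCs (-1.0).

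Among 32 clathrin adaptors and coat genes, 7 rose and 1 fell, and the 21.9% that rose was no more than the 24.2% of all genes. Myo6, the motor that draws apical vesicles inward and binds Dab2, had 514 and 600 reads in tc;Sf1ESCs and 10251 and 14548 in SCLCs (log2 fold change 4.46, SE 0.168, adjusted p = 7.65e-08). Epn3, an epsin of epithelia, had no reads in either tc;Sf1ESC library and 196 and 346 in SCLCs, at least 86.1-fold higher against 3 reads per library. Cltb, a clathrin light chain, fell by 1.43 on the log2 scale (SE 0.182, adjusted p = 9.93e-05).

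Of 30 endosome and recycling genes, 10 rose (33.3%, against 24.2% of all genes) and 2 fell. Clcn5, the endosomal chloride-proton exchanger of the proximal tubule, had 483 and 434 reads in tc;Sf1ESCs and 5319 and 7707 in SCLCs (log2 fold change 3.81, SE 0.156, adjusted p = 1.18e-07). Its relative Clcn4 and the recycling factor Rab11fip2 each rose by a log2 of 2.25 (SE 0.158 and 0.129, adjusted p = 2.42e-06 and 7.17e-07). Ehd3 fell by 1.79 on the log2 scale (SE 0.166, adjusted p = 1.34e-05). Rab4a, of the fast recycling route, fell by 1.04 (SE 0.129, adjusted p = 8.39e-05), a call that was lost without SCLC replicate 1, where the value was -0.83, and in a test against a 2-fold change.

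Of 15 other lysosomal proteases and inhibitors, 8 rose (53.3%, against 24.2% of all genes) and 1 fell. Ctsh, an aminopeptidase cathepsin, had 2 and 5 reads in tc;Sf1ESCs and 6825 and 10391 in SCLCs, a ratio with a 95% counting interval of 1151 to 5899 (log2 fold change 11.20, SE 0.291, adjusted p = 1.40e-08). Without replicate 2 of tc;Sf1ESCs the value for Ctsh was 11.92. Ctso had 1 and 2 reads against 264 and 312, a ratio of 185 with an interval of 63.0 to 900.3. Ctsz rose from 38.4 ± 2.19 to 416 ± 68.6 CPM (log2 fold change 3.48, SE 0.115, adjusted p = 4.17e-08) and Ctsb, an abundant cathepsin, from 323 ± 1.2 to 821 ± 125 CPM (log2 fold change 1.39, SE 0.102, adjusted p = 3.09e-06). Ctsd, the aspartic cathepsin, stood at 468 ± 2.23 and 750 ± 157 CPM, a log2 fold change of 0.73 (SE 0.128, adjusted p = 0.000801) that stayed under the 2-fold limit. Ctsw, a cathepsin of lymphoid cells, fell by 3.04 on the log2 scale (SE 0.450, adjusted p = 0.000264), from 127 and 131 reads to 24 and 7. Its log2 fold change was -4.24 without SCLC replicate 1 and -2.35 without SCLC replicate 2.

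Of 29 other lysosomal proteins, 14 rose (48.3%, against 24.2% of all genes) and 1 fell. Lipa, the acid lipase that frees cholesterol from taken-up lipoproteins, had 69 and 75 reads in tc;Sf1ESCs and 1648 and 1805 in SCLCs (log2 fold change 4.57, SE 0.112, adjusted p = 1.12e-08). The sulfatase Galns and the sialidase Neu1 rose by a log2 of 3.15 (SE 0.151, adjusted p = 2.54e-07) and 2.72 (SE 0.114, adjusted p = 1.25e-07). Mitf, a transcription factor of the family that drives lysosomal genes, fell by 2.42 (SE 0.242, adjusted p = 2.17e-05), from 2992 and 3225 reads to 623 and 542. The median log2 fold change of the lists, beside 0.02 over all genes, was 0.98 for these proteins, 1.08 for the proteases, 0.74 for endosome genes, 0.48 for uptake receptors, 0.46 for clathrin genes and 0.05 for receptor partners.

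**Figure D5:**
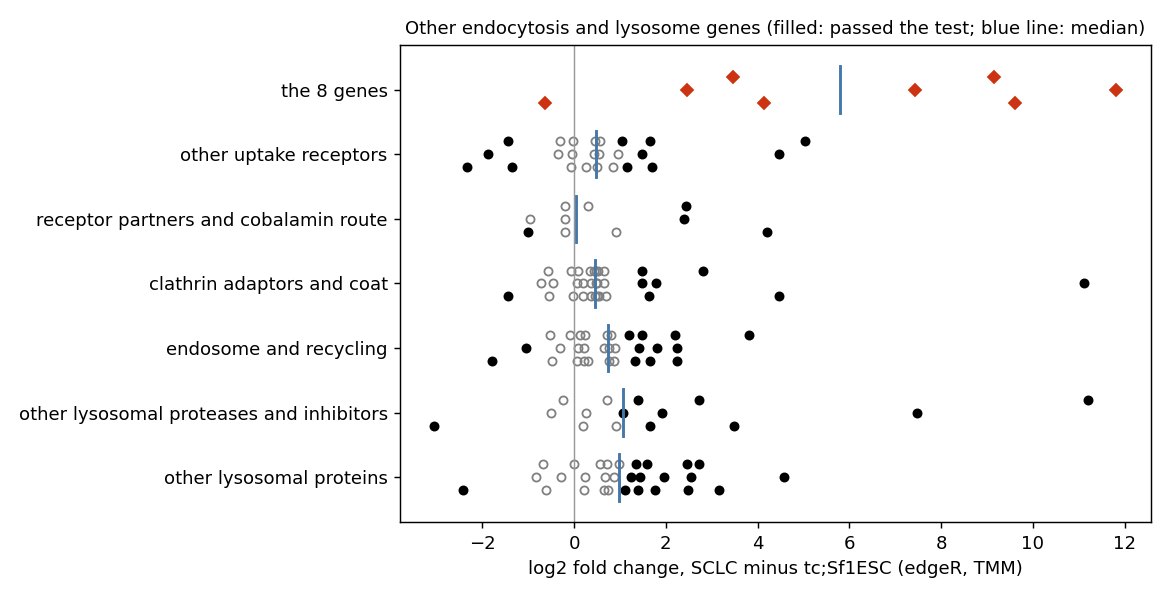
Log2 fold change of SCLCs against tc;Sf1ESCs (edgeR, TMM) for the 8 genes (red diamonds, no test) and for 140 other genes in 6 lists (filled circles passed the test, open circles did not); blue lines are medians. The medians of the lists run from 0.05 to 1.08, and that of the 8 genes is 5.79.

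Between SCLCs and tod-PGCLCs, 19.5% of all genes tested were higher and 18.5% lower in SCLCs. Of 29 other lysosomal proteins 19 were higher in SCLCs, and of 15 lysosomal proteases and inhibitors 9 were higher and 1 lower, whereas of 24 uptake receptors 1 was higher and 7 were lower. Sort1 and Mrc2 were 2 of those 7, with log2 fold changes of -1.06 and -1.47 in SCLCs against tod-PGCLCs. Against tcESCs, 8 of the 24 uptake receptors were higher and 1 lower in tod-PGCLCs (18.1% and 11.2% of all genes), and those higher included Vldlr (log2 fold change 2.32, adjusted p = 0.00012), Sort1 (2.23) and Mrc2 (4.30). The difference between lists was not tested.

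The genes whose profile over the 8 libraries was nearest to the mean profile of Lrp2, Cubn and Amn were Stk32b, Apoa1, Apol7a, Enpep, Ttr, Slc28a2, Dram1 and Adora1. Likeness was the Euclidean distance between centred log2 CPM profiles, which was 1.15 to 1.58 for these 8 and 10.6 in the median of 14242 candidates. Apoa1, the apolipoprotein that cubilin binds, had 0 to 1 reads in each ESC library, 981 and 2002 in SCLCs, and 20 and 24 in tod-PGCLCs. Enpep, an apical aminopeptidase, had none in ESCs, 1710 and 2095 in SCLCs, and 17 and 14 in tod-PGCLCs. Ttr, the thyroid hormone carrier that megalin takes up, had none in ESCs, 1240 and 3411 in SCLCs, and 15 and 15 in tod-PGCLCs. Apoa1 and Ttr are also on the list of visceral endoderm markers. The list of 8 depends on how reads near 0 are handled, since 1 of the 8 was also among the nearest with a prior count of 0.25 instead of 2. Of the 3 genes that define the mean profile, Amn lay at distance 1.54, Lrp2 at 2.68 and Cubn at 2.86, the last 2 farther from it than the 8 named genes. Among the other members, Dab2 was at distance 2.40, Lgmn at 5.91, Ctsl at 6.63, Lrpap1 at 7.87 and Fcgrt at 11.3.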

How the data were processed

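Poly-A RNA of 8 libraries was sequenced as strand-specific 50 bp read pairs. The authors trimmed the reads with Trim Galore, aligned them to GRCm38 with STAR 2.4.0 and deposited HTSeq counts, the raw number of reads per Ensembl gene in each library, without normalization. The 5 rows that name no gene took 35.6% to 41.6% of the reads and were left out; 1 of them takes the reads that aligned to several places, so these are in no gene. Of 46078 IDs, 45229 were named with GENCODE M21.

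CPM are counts scaled to the gene total of a library. Genes with a mean count above 10 (16707) were fitted in edgeR 4.0.16 (R 4.3.3) over all 8 libraries with TMM normalization, tested by quasi-likelihood and adjusted by Benjamini-Hochberg over all of them. A gene was called where its fold change was above 2 and its adjusted p under 0.05. The procedure was tested on simulated data. The members and gene lists were chosen with earlier results of these data known. The genes named are the 8 members, in each list up to 3 called genes at either end of the log2 fold change of SCLCs against tc;Sf1ESCs (mean of 1 CPM or more, no overlap of libraries), B2m, Lrp1, Clcn5, Ctsb and Ctsd, and the 8 nearest profiles; some genes that this rule names are not reported here. Log2 CPM for distances used a prior count of 2. Marker genes are named from lists of tissue markers. Counting intervals are 95% exact intervals. Transcript lengths are those of the shortest APPRIS principal transcript. The fits were repeated with DESeq2 1.42.0, with RLE size factors or bare library totals for scaling, with filterByExpr or a minimum of 1 count as the filter, with a block for the replicate number, against a 2-fold change, without the tod-PGCLC libraries, and without each single library.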

Additional observations from a re-analysis of the deposited data

How the results depend on the processing

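A test against a 2-fold change lowered the number of genes called from 2002 to 624 between tc;Sf1ESCs and tcESCs and from 4906 to 3078 between tod-PGCLCs and tcESCs, and that of the other endocytosis and lysosome genes called between tc;Sf1ESCs and tcESCs from 16 to 1. The other counts over all genes and over the 140 listed genes stayed within 1.5 times their value in each alternative run. Every gene with at least 1 count gave 8678 calls between SCLCs and tc;Sf1ESCs, against 7055. The replicate number as a block gave 1979, 7038, 7131, 4893 and 6313 calls for tc;Sf1ESCs against tcESCs, SCLCs against tc;Sf1ESCs, SCLCs against tcESCs, tod-PGCLCs against tcESCs and SCLCs against tod-PGCLCs. In these comparisons same-numbered libraries deviated together with correlations of -0.0259 to 0.0624. With 2 libraries a group, such correlations cannot tell whether same-numbered libraries shared a culture or a batch. Library totals without a scaling factor moved the median of all genes between SCLCs and tod-PGCLCs by -0.13 (log2). The log2 fold changes near 0 changed sign in some alternatives for Fcgrt (tc;Sf1ESCs against tcESCs and SCLCs against tod-PGCLCs) and, between tod-PGCLCs and tcESCs, for Dab2, Ctsl and Lgmn. With 2 libraries a group, where a left-out library leaves 1, the lone library is assumed to vary like the others. Cubn and Amn rest on 11 to 32 reads per ESC library, and the SCLC libraries differ by 2.0 times in Cubn. Both limit the precision of their fold changes.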
